A study of Mus musculus with 6 samples.

Results

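The cytosolic ribosomal protein genes were followed in RNA-sequencing of mouse acute myeloid leukemia (AML) cells with and without *Phf6* deletion. They were taken from the deposited table as the protein-coding rows named *Rpl* or *Rps* with a number, *Rplp0* to *Rplp2* and *Rpsa*, without the *Rps6k* kinases. The rule found 94 of 54532 genes. Of these, 31 encode proteins of the small (40S) subunit, 43 proteins of the large (60S) subunit and 3 the P stalk of the large subunit. These 77 genes are called canonical here. A further 8 are paralogs of canonical genes, 8 carry a pseudogene name although the table lists them as protein-coding, and *Rps19bp1* matches the name only, since it encodes a protein that binds Rps19 and is not part of the ribosome.

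The study asked what loss of *Phf6*, a chromatin-associated gene on chromosome X, changes in AML driven by the fusion protein RUNX1-ETO9a (RE9a). Fetal liver cells of embryonic day 14.5 from *Phf6 fl/y* or *Vav1-Cre;Phf6 fl/y* males were infected with an RE9a-GFP retrovirus and passed serially through male recipients. The 3 *WT Phf6,RE9a* libraries (replicates 1, 2 and 3, WT in the following) carry the floxed allele without Cre, and the 3 *VC Phf6,RE9a* libraries (replicates 11, 12 and 13, VC in the following) carry it with Vav1-Cre, a recombinase active in blood cells. Both groups hold GFP-positive leukemia cells of bone marrow, but it is not stated that each came from its own mouse or leukemia, so p-values measure only the spread between these libraries.

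A ribosome holds one copy of nearly every ribosomal protein, and the cell makes them in matching amounts although their genes lie on many chromosomes. Their mRNAs start with a run of pyrimidines (the TOP motif), through which mTORC1 adjusts the translation of all of them together. Loss of a single copy of some of these genes causes Diamond-Blackfan anemia or accompanies leukemia, and free Rpl5 and Rpl11 bind Mdm2 and so stabilize p53.

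Total counts per library ran from 15675358 to 16817994, of which 730934 to 984640 fell on the 94 genes. *Phf6* had 1044, 827 and 1142 counts in WT and 388, 314 and 331 in VC libraries (log2 fold change -1.66, SE 0.13), so the labels and the targeted gene go the same way. The groups also differed in markers of cell types and of proliferation. Summed over each marker list, WT and VC libraries had 13530 to 21070 and 1404 to 1943 CPM (counts scaled to a common library size) of 6 mast cell markers, 1440 to 2212 and 5108 to 6093 CPM of 8 erythroid markers, 144 to 443 and 910 to 3435 CPM of 8 neutrophil markers, and 2542 to 3824 and 4104 to 4352 CPM of 12 proliferation markers. Scarcer lists were also higher in VC libraries without overlap, from 0.61 to 1.10 and 9.03 to 26.9 CPM for 6 B cell markers, 1.17 to 2.58 and 8.08 to 12.8 CPM for 8 T cell markers, and 26.4 to 34.5 and 48.5 to 53.6 CPM for 7 macrophage markers. Of the 6 mast cell markers 5 were lower at an adjusted p under 0.05 in edgeR's quasi-likelihood test. The other, *Ms4a2*, was not called, at 1146, 1106 and 1289 CPM in WT and 970, 935 and 1323 CPM in VC libraries. None of the markers found in the table was at 0 in all 6 libraries. The part of these differences in the results on ribosomal proteins was not tested, and fewer cells of a type and less RNA per cell cannot be told apart in bulk RNA. Whether leukemia cells or other cells held the marker transcripts cannot be told either.

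Most ribosomal protein genes did not pass the threshold between WT and VC cells, and those that rose lay on a single chromosome. Of the 88 members with enough counts to be tested, 5 were higher in VC cells at an adjusted p under 0.05 in edgeR's quasi-likelihood test, namely *Rps19bp1*, *Rpl30*, *Rpl8*, *Rpl37* and *Rpl3*. Among all 14169 genes tested, 21.5% were higher. The paralog *Rpl22l1* was the 1 member that was lower, where 22.7% of all genes were lower. Of the 31 genes of the 40S subunit edgeR called 0, while 1 was higher and 1 lower at an unadjusted p under 0.05 and DESeq2 called 1 lower. Of the 43 genes of the 60S subunit 4 were higher and 0 lower (7 and 1 unadjusted, 4 and 0 with DESeq2). Of the 3 P stalk genes 0 were called by edgeR or DESeq2, and 1 was higher at an unadjusted p under 0.05.

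The members moved little as a whole. Their median log2 fold change was 0.06, beside 0.01 over all genes tested, with 55 members above 0 and 33 below. The fitted values ran from -0.75 to 0.84, and the median standard error was 0.12, beside 0.17 for all genes. Among genes with a mean over 100 CPM, it was 0.12 for the 74 canonical members and 0.10 for the 2434 genes outside the members. The 95% confidence interval of the fold change lay within 1.5-fold in both directions for 60 of the 88 members and within 2-fold for 80. Over all genes tested the corresponding numbers were 4136 and 7597 of 14169. The libraries of the groups did not overlap in CPM for 20 members, which is 22.7% of those tested, beside 57.3% of all genes.

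**Figure D1:**
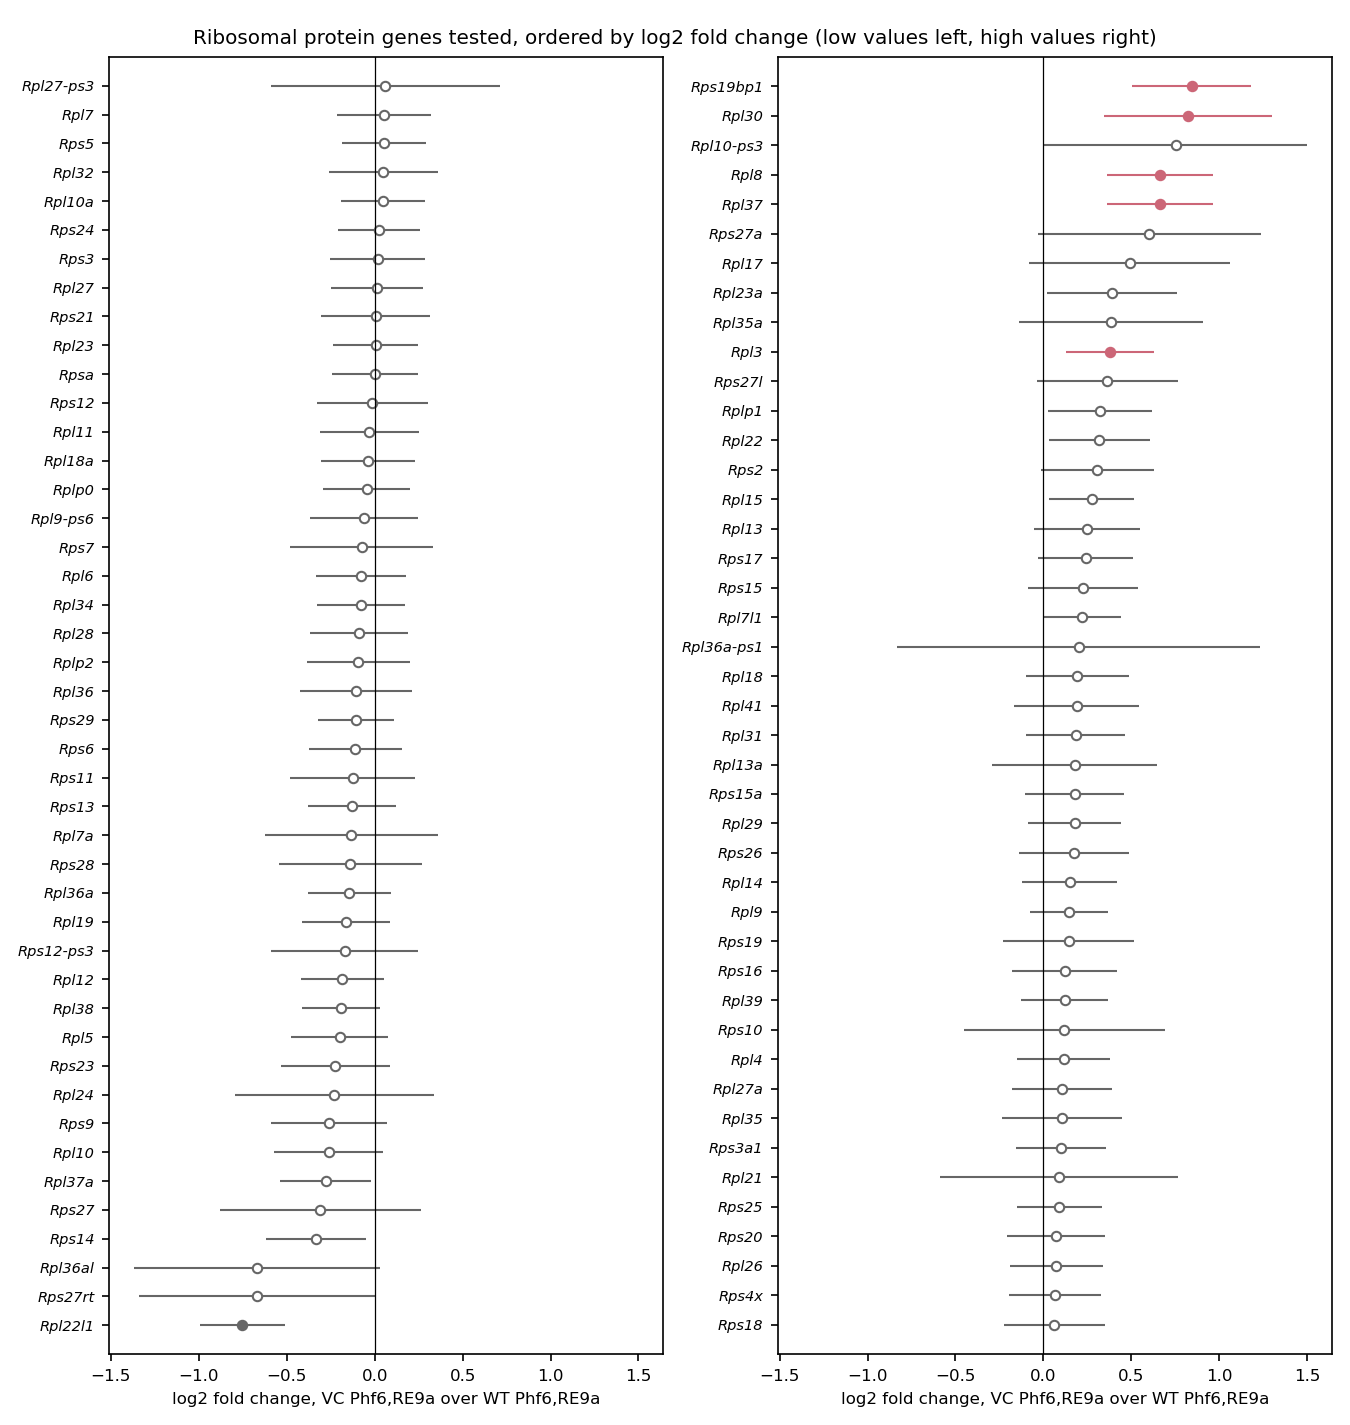
Log2 fold change in VC against WT (x axis) for 87 of the 88 members tested, ordered by value, with the 95% confidence interval as a line. Filled points are the 6 genes at an adjusted p under 0.05, red marks the 5 genes on chromosome 15, and most other intervals cross 0.

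The genes that rose include 4 of the large subunit. *Rpl30*, a small protein of the 60S subunit, was at 385, 349 and 215 CPM in WT and 579, 503 and 596 CPM in VC libraries. Each VC library lay above every WT library, and WT replicate 3 was the lowest of all. The log2 fold change was 0.82 (SE 0.21, adjusted p = 0.0140, edgeR's quasi-likelihood test).

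*Rpl8*, a protein close to the peptidyl transferase centre, was at 1276, 997 and 991 CPM in WT and at 1716, 1657 and 1798 CPM in VC libraries, a log2 fold change of 0.66 (SE 0.13, edgeR adjusted p = 0.00494). *Rpl37*, another small protein of the large subunit, was at 386, 302 and 308 CPM and at 533, 469 and 573 CPM, also a log2 fold change of 0.66 (SE 0.13, edgeR adjusted p = 0.00498). For both genes the groups were apart, with WT replicate 1 the nearest to the VC libraries.

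*Rpl3*, a large protein that also reaches towards the peptidyl transferase centre, changed least of the 5. It was at 1258, 1101 and 1254 CPM in WT and 1592, 1475 and 1634 CPM in VC libraries (log2 fold change 0.38, SE 0.11, edgeR adjusted p = 0.0229). The groups did not overlap, but the call was lost without VC replicate 11 or 13. *Rps19bp1* was the least abundant of the 5, at 12.01, 10.04 and 12.41 CPM and at 20.8, 19.1 and 21.98 CPM (log2 fold change 0.84, SE 0.15, edgeR adjusted p = 0.00293), again with no overlap.

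**Figure D2:**
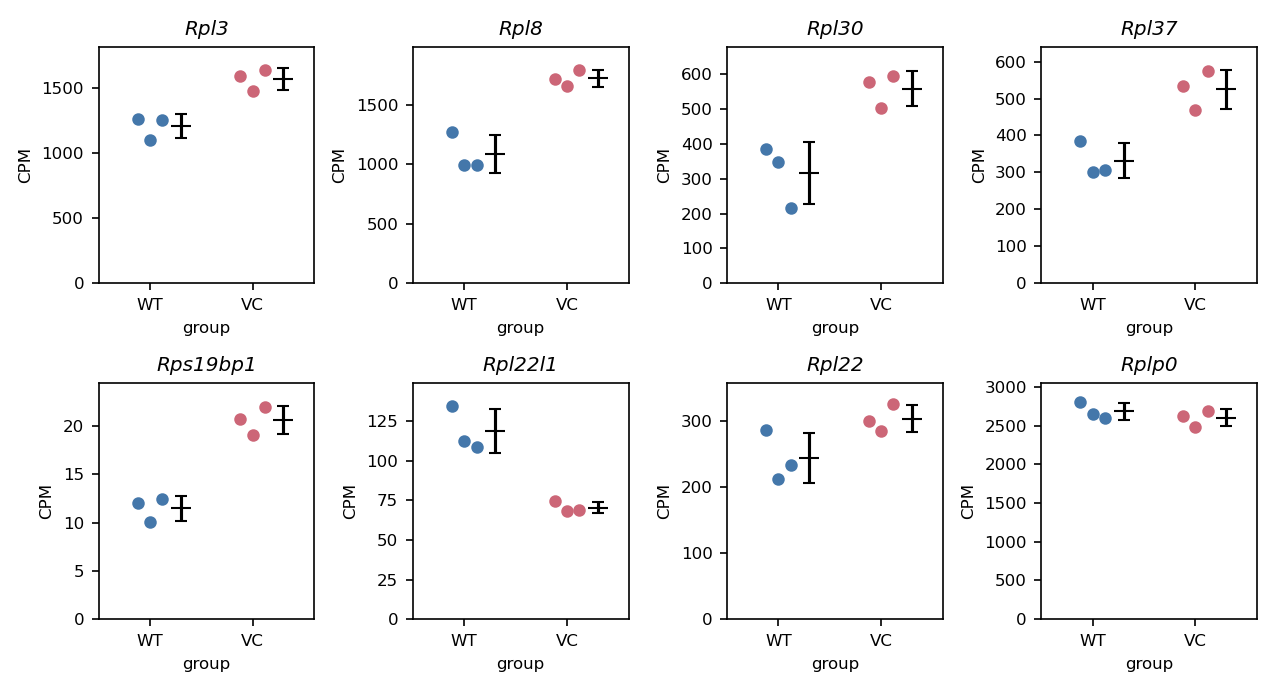
CPM after TMM scaling (y axis, from 0) of the 6 called members and, for comparison, *Rpl22* and *Rplp0*, in the 3 WT (blue) and 3 VC (red) libraries, with the mean and SD in black. The groups are apart in the first 6 panels and overlap in *Rpl22* and *Rplp0*.

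These 5 genes were also the 5 members on chromosome 15, and 0 of the 83 members tested on other chromosomes rose at the threshold. DESeq2 likewise called 0 of these 83 higher, and 6 were higher at an unadjusted p under 0.05 in edgeR. The genes lie at chr15:5116645-5119140 (*Rpl37*), chr15:34440505-34443640 (*Rpl30*), chr15:76904078-76906314 (*Rpl8*), chr15:80077791-80091868 (*Rpl3*) and chr15:80260615-80264315 (*Rps19bp1*) on GRCm38. Other genes of this chromosome were higher as well. The 537 tested genes of chromosome 15 outside the 94 had a median log2 fold change of 0.58, and 60.9% were higher and 8.19% lower. On all other chromosomes together the median was -0.01, with 20% higher and 23.4% lower.

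The level of chromosome 15 was much the same in the libraries of a group. Relative to the WT mean, the median log2 difference of its other genes was 0.02, -0.01 and 0.00 in the WT libraries and 0.58, 0.61 and 0.59 in the VC libraries. In bins of 20 Mb along the chromosome the median ran from 0.38 to 0.66, with at least 42 genes in each bin. Within 5 Mb of each member the median over its neighbours was 0.34 around *Rpl37*, 0.64 around *Rpl30*, 0.73 around *Rpl8*, 0.71 around *Rpl3* and 0.70 around *Rps19bp1*.

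Measured against the chromosome's median, *Rpl8* and *Rpl37* were higher by 0.08 each on the log2 scale, *Rpl30* by 0.24 and *Rps19bp1* by 0.26, while *Rpl3* was at -0.20. With each chromosome's median taken out of the fit, 0 of these 5 passed the threshold (edgeR adjusted p from 0.169 to 0.648). That alternative was chosen after the values were seen. Copies of the chromosome in the DNA were not measured, and the level of the whole chromosome and the genotype cannot be told apart with these libraries.

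Chromosome 14 went the other way, at a median log2 fold change of -0.80 across 461 other genes and 60.5% of them lower, but its 3 members tested did not. *Rpl15*, of the large subunit, had a log2 fold change of 0.28 (edgeR adjusted p = 0.0639), *Rps24*, of the small subunit, 0.02 (0.868) and *Rpl36a-ps1*, at about 1 CPM, 0.20 (0.744). Around *Rpl15* and *Rps24* the neighbours within 5 Mb had medians of -0.22 each, and around *Rpl36a-ps1* the median was -0.83 over 16 neighbours. Along the chromosome it was -0.11 over 27 genes in the first 20 Mb, -0.81 to -0.96 from 20 to 80 Mb, and -0.47 to -0.24 from 80 to 140 Mb, where 2 of the 3 bins held under 20 genes. *Rpl15* and *Rps24* were the 2 members called higher once chromosome medians were taken out, which for these 2 genes removes more than their neighbours show.

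**Figure D3:**
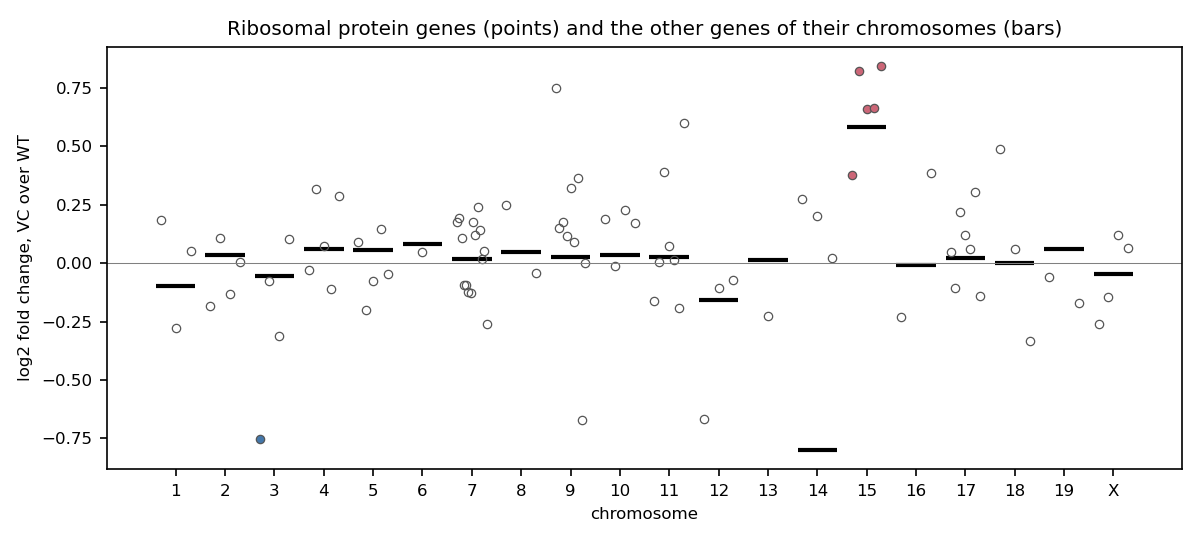
Log2 fold change of VC over WT (y axis) of the 88 members tested (points, red where called higher and blue where called lower), by chromosome, with the median of all other tested genes of the chromosome as a black bar. The bar of chromosome 15 is at 0.58 with its 5 members around it, and the bar of chromosome 14 is at -0.80 below its 3 members.

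The member that was lower was *Rpl22l1*, the paralog that can replace the RNA-binding protein Rpl22 in the ribosome. *Rpl22* (chr4:152325742-152334071) and *Rpl22l1* (chr3:28805436-28807424) are both on the plus strand of GRCm38, and in mouse cells Rpl22 is known to hold down *Rpl22l1* mRNA. Their coding sequences align over 344 bases, of which 255 (74.1%) are identical. The sequences below, from the GENCODE M21 transcripts, show bases 175 to 234 of the *Rpl22* and 154 to 213 of the *Rpl22l1* coding sequence with the 24 differing bases in capitals, since reads over such a stretch are distinct for the 2 genes.
Rpl22: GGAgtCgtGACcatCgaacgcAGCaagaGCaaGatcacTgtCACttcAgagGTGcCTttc
Rpl22l1: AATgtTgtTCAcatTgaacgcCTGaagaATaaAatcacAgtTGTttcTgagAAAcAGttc

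*Rpl22l1* was at 135, 113 and 109 CPM in WT and 74.6, 68.0 and 68.8 CPM in VC libraries. Each VC library was below every WT library, with a log2 fold change of -0.75 (SE 0.10, edgeR adjusted p = 0.00104). In all 19 alternatives run for it the gene stayed lower and past the threshold, with log2 fold changes from -0.82 to -0.60. An antisense gene, *Gm33051*, shares exon bases with it and had 0 counts in the 6 libraries. The other tested genes within 5 Mb of *Rpl22l1* had a median of 0.08.

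*Rpl22* itself was at 286, 213 and 233 CPM in WT and 301, 285 and 325 CPM in VC libraries. The groups met at WT replicate 1, and the log2 fold change was 0.32 (SE 0.12, edgeR adjusted p = 0.0714). The ratio of both needs no scaling between libraries. *Rpl22l1* had 47.1%, 53.02% and 46.6% as many counts as *Rpl22* in WT and 24.8%, 23.8% and 21.2% in VC libraries. The mean log2 ratio went from -1.03 ± 0.10 to -2.11 ± 0.12 (SD, n = 3), a difference of -1.07 (exact 2-sided permutation test, p = 0.1, the smallest that 3 against 3 libraries allow, and 0.2 when adjusted over 4 pairs).

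The other paralogs differed less from their parents. *Rps27l*, a paralog of *Rps27* known as a p53 target, was at 64.9, 39.4 and 59.2 CPM in WT and 66.8, 73.1 and 70.6 CPM in VC libraries (log2 fold change 0.36, edgeR adjusted p = 0.126). *Rpl7l1*, a paralog of *Rpl7* with a role in making the large subunit, had a log2 fold change of 0.22 (edgeR adjusted p = 0.0987), and *Rpl36al*, at 1.22 to 2.92 CPM, of -0.67 (edgeR adjusted p = 0.110). The differences in log2 ratio to the parent gene were 0.68 for *Rps27l*, 0.17 for *Rpl7l1* and -0.56 for *Rpl36al*, with exact permutation p of 0.3, 0.2 and 0.1. The ratio of *Rps27l* uses counts of *Rps27* alone, without *Rps27rt*, a locus with the coding sequence of *Rps27*. *Rpl3l*, which is known from striated muscle, had 10, 5 and 10 counts in WT and 3, 6 and 0 in VC libraries and was not tested. *Rpl10l* and *Rpl39l*, known from the testis, had 0 counts in every library, which allows up to 3 counts in each, for counting error only.

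*Rps27* is a gene of the small subunit with a second locus of the same coding sequence. Over the coding sequence *Rps27* (chr3:90212522-90213651, minus strand) and *Rps27rt* (chr9:114982366-114982739, minus strand) are identical at 252 of 252 bases, while *Rps27* and *Rps27l* (chr9:66946086-66949516, plus strand) are identical at 192 of 252 (76.2%). Bases 4 to 63 of the coding sequence are shown with the 19 differences between *Rps27* and *Rps27l* in capitals, and *Rps27rt* has the letters of *Rps27*.
Rps27: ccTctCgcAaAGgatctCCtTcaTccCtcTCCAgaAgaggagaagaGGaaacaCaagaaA
Rps27l: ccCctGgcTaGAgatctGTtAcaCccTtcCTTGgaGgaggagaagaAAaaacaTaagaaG

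*Rps27* was at 177, 301 and 173 CPM in WT and 221, 160 and 144 CPM in VC libraries, and *Rps27rt* at 215, 127 and 174 CPM and at 81.4, 84.7 and 159 CPM. In each group the library with the most *Rps27* had the least *Rps27rt*. Alone, neither passed the threshold (log2 fold changes -0.31 and -0.67, edgeR adjusted p = 0.342 and 0.0961). *Rps27rt* was called lower in 4 of 19 alternatives, with DESeq2, without a count filter, with the gene length trend removed and without VC replicate 13. Summed, they came to 393, 429 and 347 CPM in WT and 303, 245 and 303 CPM in VC libraries without overlap, a log2 fold change of -0.46 (SE 0.12, edgeR adjusted p = 0.0182). The sum was formed after the values were seen.

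**Figure D4:**
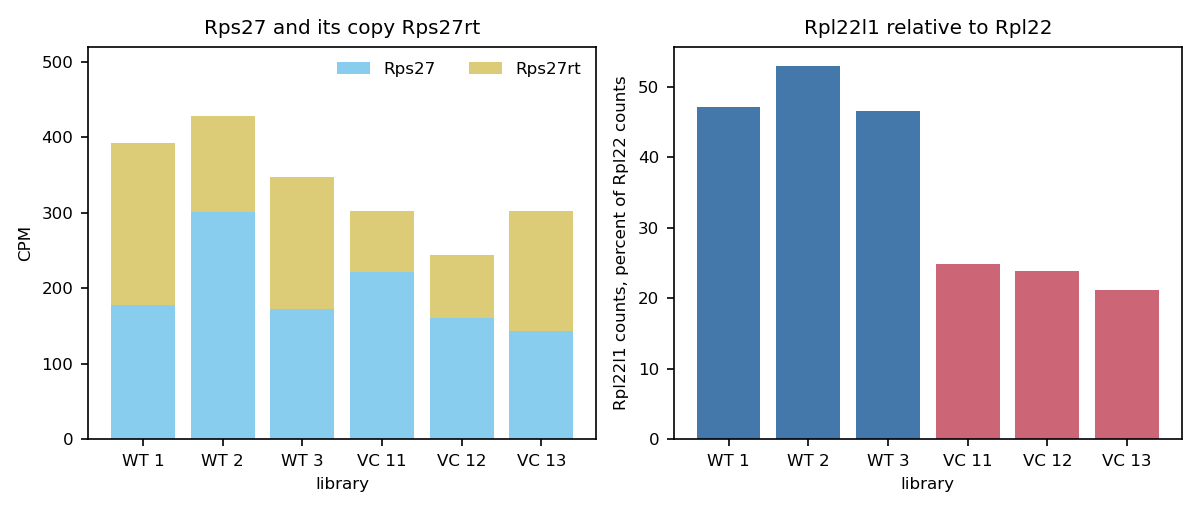
Left, CPM (y axis) of *Rps27* (blue) stacked with *Rps27rt* (yellow) in each library, where the stacks are at 347 to 429 CPM in WT and 245 to 303 CPM in VC libraries. Right, *Rpl22l1* counts as a percent of *Rpl22* counts in each library, at 46.6% to 53.02% in WT (blue) and 21.2% to 24.8% in VC (red) libraries.

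Ribosomal protein genes known from disease were followed as lists. Of all genes tested, edgeR called 21.5% higher and 22.7% lower. Of 18 genes mutated in Diamond-Blackfan anemia 0 were called by edgeR's quasi-likelihood test or DESeq2 (1 higher at an unadjusted p under 0.05), and their log2 fold changes ran from -0.31 to 0.39 with a median of 0.09. Of the 6 genes mutated or deleted in leukemia edgeR called 0, with 1 higher and 1 lower at an unadjusted p under 0.05, and DESeq2 called 1 lower. *Rps14*, deleted in the 5q- syndrome, was at 843, 868 and 754 CPM in WT and at 676, 561 and 718 CPM in VC libraries. These groups did not overlap, and with a log2 fold change of -0.33 (SE 0.12, edgeR adjusted p = 0.0570) it was the member closest to the threshold, which it passed with DESeq2, with the gene length trend removed and without WT replicate 3. *Rpl10*, a late-joining protein of the large subunit that is mutated in T cell leukemia, had a log2 fold change of -0.26, *Rps15* of 0.23, *Rpl5* of -0.20 and *Rpl11* of -0.03, with edgeR adjusted p from 0.150 to 0.860.

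*Rpl5*, *Rpl11* and *Rpl23* can bind Mdm2, and their 95% intervals all lay within 1.5-fold (*Rpl23* log2 fold change 0.01, edgeR adjusted p = 0.972). *Mdm2*, the ubiquitin ligase of p53, was lower (log2 fold change -0.41, edgeR adjusted p = 0.0377), as was the p53 target *Cdkn1a* (-2.92, edgeR adjusted p = 0.000281). *Trp53*, which encodes p53, was not called (0.18, edgeR adjusted p = 0.285).

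*Rpl15*, another gene close to the threshold, was at 491, 437 and 424 CPM in WT and 558, 497 and 582 CPM in VC libraries. Every VC library was above every WT library, by a small margin.

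Of the P stalk, which recruits the elongation factors to the ribosome, *Rplp1* was at 1493, 1310 and 1157 CPM in WT and 1641, 1541 and 1766 CPM in VC libraries (log2 fold change 0.32, SE 0.13, edgeR adjusted p = 0.0745). Its partners *Rplp0* and *Rplp2* had log2 fold changes of -0.05 and -0.09 (edgeR adjusted p = 0.754 and 0.578). The groups were apart for *Rplp1* and overlapped for the other 2.

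Per length, the canonical genes spread over a wide range of levels in the deposited FPKM, which divides fragments by gene length and library size. The median library of WT had 2605 FPKM of *Rplp1*, 1583 of *Rplp0*, 1171 of *Rps3a1*, 984 of *Rpl36* and 873 of *Rpl4*. *Rpl4*, a large-subunit protein, could not be told from *Rps15*, which is also at 873 FPKM, and their libraries overlapped. *Rplp1* and *Rplp0* were the highest 2 in both groups, each with its lowest WT library above the highest of the gene ranked next. The middle of the 77 canonical genes was at 320 FPKM in WT and 350 FPKM in VC cells. At the other end, *Rps10* had 1.78 FPKM, *Rpl24* 4.29, *Rpl13a* 16.96, *Rpl35a* 37.5 and *Rpl21* 40.6. The order depends on the deposited gene lengths, and whether these are the lengths of the mRNAs was not tested. *Rpl36*, with 383 bases, had a mean of 409 CPM in WT and a median of 984 FPKM. *Rps15a*, with 6270 bases, had 495 CPM but 78.4 FPKM.

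Overlaps were sought with other genes, leaving out those of small nucleolar RNAs, small Cajal body RNAs and microRNAs and those of biotype TEC. Within this search, some of the genes with the lowest levels overlap another gene, while *Rpl35a* and *Rpl21* share exon bases with none. *Rps10*, *Rpl24* and *Rpl13a* share exon bases with the genes *RPS10-NUDT3*, *Gm28037* and *Gm45713*, which had 0 counts in all 6 libraries, and the paralog *Rpl36al* with *Gm49383*, also at 0. *Rps10* also overlaps the antisense gene *Gm15420*, which had 6 counts over all libraries together. Whether such an overlap lowered the counts was not tested. In all, 22 members share exon bases with another gene searched, 18 of them with one on the opposite strand. Of the 5 genes of chromosome 15, 0 share exon bases with a gene searched. The strandedness of the counting is not given in the sources used here.

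Reads of a member may also be counted on near-identical pseudogenes. Each such pseudogene was credited only to the member that matched it best. Of 85 members whose coding sequence was searched, 70 were credited with a copy of at least 95% identity over at least 90% of it. These were 472 copies in all, of which 373 had counts. Together the copies held 6.54% ± 0.35 as many counts as the members in WT and 5.98% ± 0.29 in VC libraries (SD, n = 3, exact 2-sided permutation test, p = 0.2). The copies of *Rpl24* held 194% and those of *Rpl17* 141.5% as many counts as the gene, and those of *Rpl21* 99.7%.

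Of the 6 called genes, *Rpl3*, *Rpl30*, *Rpl37* and *Rpl22l1* had copies with counts, and *Rps19bp1* was not among the members searched. Copies of *Rpl3* had 4558, 3579 and 4189 counts in WT and 2084, 1848 and 2039 in VC libraries, and *Rpl3* was no longer called once they were added to it. Copies of *Rpl30* had 1280 counts in WT replicate 3, where *Rpl30* was lowest, and 253 to 414 in the other 5 libraries. The 1 copy of *Rpl37*, *Rpl37rt*, had 770, 536 and 660 counts in WT and 1248, 1075 and 1403 in VC libraries, 13.5% as many as the gene. *Rpl30* and *Rpl37* stayed higher with their copies added. For *Rpl22l1*, 1 copy with counts held 2.08% as many counts as the gene.

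As a share of all counts, the 94 genes took 5.29%, 4.66% and 4.92% in WT and 5.86%, 5.42% and 6.14% in VC libraries. The groups did not overlap, at means of 4.96% ± 0.31 and 5.80% ± 0.36 (SD, n = 3, exact 2-sided permutation test, p = 0.1, the smallest possible). The groups also differed in the share of the most abundant other genes, whose part in this difference was not tested. The 100 most abundant other genes held 18.4% ± 1.34 of the counts in WT and 13.9% ± 0.67 in VC libraries, *Fosb* alone 1.17% ± 0.27 and 0.45% ± 0.15. Without those 100 genes the share was 6.07% ± 0.42 and 6.75% ± 0.45 (exact permutation p = 0.2). Without the members of chromosome 15 it was 4.68% ± 0.29 and 5.34% ± 0.34 (exact permutation p = 0.2).

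After scaling by TMM, which discounts such genes, the summed level of the members was 57721, 49590 and 49678 CPM in WT and 56416, 50788 and 58501 CPM in VC libraries (exact 2-sided permutation test, p = 0.5). The groups overlapped on this scale. With scaling by total counts alone, the median of all genes moved by 0.15 on the log2 scale, all genes were called 4048 higher and 2474 lower in place of 3047 and 3213, and 23 members were higher and 1 lower. The 5 genes of chromosome 15 were among the calls under each of the 4 scalings tried.

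**Figure D5:**
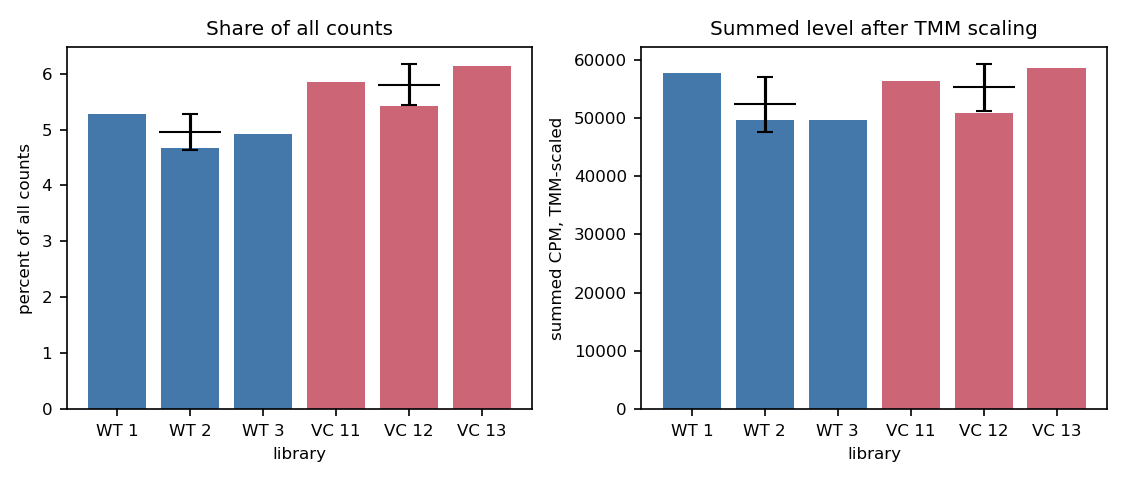
Left, percent of all counts on the 94 members (y axis) in each library. Right, their summed CPM after TMM scaling, with the mean and SD of each group in black. On the left the VC libraries (red, 5.42% to 6.14%) lie above the WT libraries (blue, 4.66% to 5.29%), and on the right they overlap.

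Most of the translation factors that were higher also lay on chromosome 15. Of 36 translation factors 7 (19.4%) were higher and 2 (5.56%) lower, beside 21.5% and 22.7% of all genes. Their log2 fold changes had a median of 0.05, against 0.01 for all genes. On chromosome 15, where 60.9% of the other genes were higher, 6 of the 7 factors tested were higher. They are *Eef1d*, of the elongation factor 1 complex (log2 fold change 0.78), *Eif3l* (0.73), *Eif3d* (0.64), *Eif3e* (0.54) and *Eif3h* (0.49), subunits of initiation factor 3, and *Eif4b* (0.42), a helper of the helicase that opens mRNA leaders. *Eif3l* was at 179, 149 and 203 CPM in WT and 297, 294 and 288 CPM in VC libraries, with no overlap. Among the 29 factors on other chromosomes, 1, *Eef1e1*, was higher (0.76), and 2, *Eif5* (-1.10) and *Eif3f* (-0.45), were lower in edgeR's quasi-likelihood test. Of all genes tested on those chromosomes outside the members, 20% were higher and 23.4% lower.

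Of 19 other genes with TOP mRNAs, 4 were higher and 4 lower (21.1% each), shares close to the 21.5% and 22.7% of all genes, and their median log2 fold change was -0.07. The 4 higher ones, *Eef1d*, *Eif3e*, *Eif3h* and *Hnrnpa1* (0.56), an RNA-binding protein, are on chromosome 15. The lower ones included *Vim*, which encodes vimentin (-3.35, edgeR adjusted p = 9.69e-05), and *Tpt1*, a translationally controlled protein on chromosome 14 (-1.37, edgeR adjusted p = 0.000179).

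Among 19 regulators of mTORC1 and TOP translation 5 (26.3%) were higher and 1 (5.26%) lower, beside 21.5% and 22.7% of all genes, and their median log2 fold change was 0.10. *Eif4ebp1*, a repressor of cap-dependent initiation that mTORC1 inactivates, went from 28.0, 24.5 and 29.8 CPM to 54.8, 51.5 and 55.6 CPM (log2 fold change 0.97, SE 0.10, edgeR adjusted p = 0.000341). *Deptor*, an mTOR inhibitor on chromosome 15, was higher (1.24, edgeR adjusted p = 0.00445), and *Rptor*, the subunit that defines mTORC1, was lower (-0.81, edgeR adjusted p = 0.00152). Also higher were *Eif4ebp2*, a relative of *Eif4ebp1* (0.41, edgeR adjusted p = 0.00562), and the S6 kinases *Rps6kb2* (0.64, edgeR adjusted p = 0.00635) and *Rps6kb1* (0.22, edgeR adjusted p = 0.0449), which act downstream of mTORC1. All these are mRNA levels, and translation was not measured.

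Of 10 tested chaperones and importers of ribosomal proteins, 1 (10%) was higher and 2 (20%) were lower, beside 21.5% and 22.7% of all genes. *Bccip*, a chaperone of Rpl23, was higher (0.53, edgeR adjusted p = 0.00561), and *Aamp* (-0.54, edgeR adjusted p = 0.00443) and the importin *Ipo9* (-0.45, edgeR adjusted p = 0.00613) were lower. Ribosomal proteins whose names the rule does not match were not called where described here, with log2 fold changes of -0.18 for *Fau*, a fusion of a ubiquitin-like protein with a small-subunit protein (edgeR adjusted p = 0.424), and -0.06 for the scaffold *Rack1* (edgeR adjusted p = 0.672). Over the 5 pathway lists together, with each gene counted once, 8 of 9 genes on chromosome 15 were higher and 0 lower, beside 6 higher and 8 lower of the 66 on other chromosomes. Among all tested genes outside the 94, 60.9% were higher and 8.19% lower on chromosome 15, and 20% and 23.4% on other chromosomes.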

How the data were processed

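The 6 libraries (3 *WT Phf6,RE9a*, 3 *VC Phf6,RE9a*) were analysed from 1 table. The authors deposited raw counts of reads for each Ensembl gene. The authors also deposited FPKM values, scaled to the gene length in the table and to an adjusted library size, and columns of their own DESeq2 comparison, which were not used. The sequencing was paired-end, and the counting tool and strandedness are not given in the sources used here. The submitters' processing notes list Bowtie 0.12.0 with another mouse build, but 54495 of 54532 gene identifiers are in GENCODE M21 (GRCm38), 98.33% of these with the same start and end, so coordinates are on GRCm38.

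Tests used edgeR 4.0.16 in R 4.3.3. After filterByExpr, which kept 14169 genes, and TMM scaling, the groups were compared by edgeR's quasi-likelihood F test, and p-values were adjusted after Benjamini and Hochberg over the genes kept (threshold 0.05). CPM are TMM-scaled. Not tested for too few counts were 6 members, *Rpl3l*, *Rpl10l*, *Rpl39l*, *Rpl9-ps1*, *Rpl36-ps4* and *Rpl13a-ps1*, of which the last 5 had 0 counts. Shares, sums and log2 ratios were compared by exact permutation of the libraries. Copies were found by aligning coding sequences to all transcripts of GENCODE M21 and keeping genes with a pseudogene biotype in the deposited table. Each copy was credited only to the member that matched it best. Alternatives used DESeq2 1.42.0, limma 3.58.1 on log2(FPKM + 1) and log2(FPKM + 0.1), other scalings and filters, a gene length trend, and each library left out. The code was tested on simulated data.

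The members, the gene lists and the tests were chosen with earlier results of these data known. Named are all called members, the paralogs, the P stalk, the leukemia and Mdm2-binding lists, the 5 highest and 5 lowest canonical FPKM, the 3 members closest to the threshold, and the 3 smallest p of each other pathway list. *Eif3e*, *Eif3h*, *Eif4b*, *Eef1e1*, *Eif5*, *Eif3f*, *Hnrnpa1*, *Eif4ebp2*, *Rps6kb1*, *Rps6kb2*, *Rps24*, *Rpl17*, *Rpl36a-ps1* and *Ms4a2* were named after their values were seen. Some genes that this rule takes are not reported here.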

Additional observations from a re-analysis of the deposited data

How the results depend on the processing

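The number of members called higher was 5 and of members called lower 1. Upper-quartile scaling gave 8 higher and total counts alone 23, which put the members' median log2 fold change at 0.21. Removing chromosome medians, chosen after the values were seen, called 2 other members higher (*Rpl15* and *Rps24*) and 0 of the 5, and put *Rpl3* at -0.20. The number lower was 2 without a count filter, 3 with DESeq2, 2 with limma on log2(FPKM + 1) and 5 with the gene length trend removed. With 1 library left out, the number higher ran from 4 to 11 (11 without WT replicate 1, 8 without replicate 3), the number lower from 1 to 3, and the members' median from -0.00129 (without VC replicate 13) to 0.14. The cause of these shifts was not tested. *Rpl8*, *Rpl30*, *Rpl37* and *Rps19bp1* kept their calls in 18 of 19 alternatives each, and lost them with chromosome medians removed. *Rpl3* lost its call in 5 further alternatives, namely without VC replicate 11 or 13, with either set of pseudogene copies added, and with limma on log2(FPKM + 0.1). Of the 24 named members that were not called, 9 changed sign and 11 were called in at least 1 alternative. With 3 libraries a group, the exact test of a share or ratio cannot go below 0.1, and intervals of genes at a few CPM were wide. No paired analysis was possible because the groups share no replicate number.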

Other observations

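The mitochondrial ribosomal proteins, which build the separate ribosome of the mitochondrion, differed from the cytosolic ones in their counts of calls. Of 77 tested, 30 (39%) were higher in VC cells and 1 (1.3%), *Mrpl52* on chromosome 14, was lower, beside 21.5% and 22.7% of all genes. Their median log2 fold change was 0.32, beside 0.01 over all genes. The groups did not overlap in CPM for 64.9% of them, beside 57.3% of all genes. Of the 77, 1 (*Mrpl13*) lies on chromosome 15, and 29 of the 76 elsewhere were higher. *Mrpl13* was at 31.9, 24.8 and 30.1 CPM in WT and 69.8, 67.0 and 68.1 CPM in VC libraries (log2 fold change 1.24, edgeR adjusted p = 0.000162). *Mrpl51* had a log2 fold change of 0.88 and *Mrpl20* of 0.84, both without overlap of the groups. The difference between the cytosolic and mitochondrial lists was not tested.

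Of 2434 other genes with a mean over 100 CPM, 21.6% were higher and 30.1% lower, beside 4 higher and 0 lower of the 74 canonical genes over that level.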
